A study of Mus musculus with 4 samples.

Results

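The Sprouty and Spred genes encode inhibitory proteins of growth factor signalling and are grouped here with the Phlda genes. From these families 8 genes were followed: Spry1, Spry2, Spry4, Spred1, Spred2, Phlda1, Phlda2 and Phlda3. The members were all probe sets with one of these names as the single gene symbol in the platform annotation, 23 of the 45037 non-control probe sets on the array, for 8 of 18193 genes. The RNA was from 4 primary cultures of mesenchyme, the loose embryonic connective tissue, taken from the palates of outbred wild-type mice at day 14 of gestation (E14.0). One culture stayed untreated and another was exposed to TGF-beta2 for 120 minutes. The next was given SB431542, an inhibitor of the kinase activity of the type I TGF-beta receptor, for 60 minutes before the same TGF-beta2 exposure, and the last was given the Tak1 inhibitor 5Z-7-Oxozeaenol (oxozeaenol below) in its place. No culture received an inhibitor without TGF-beta2, and neither inhibitor doses nor the number of embryos per culture were known here.

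Growth factor receptors signal through Ras, Raf and the kinases MEK and ERK, and active ERK turns on transcription of genes that damp the same route. Sprouty proteins interfere with signalling between receptor tyrosine kinases and Raf. Spred proteins are membrane-associated relatives that bring the Ras GTPase-activating protein neurofibromin to the membrane and so lower active Ras. Phlda proteins contain a pleckstrin homology domain: Phlda1 is an early-response gene product, Phlda2 is the product of an imprinted gene that restrains placental growth, and Phlda3 is a p53-induced protein that competes with Akt for membrane lipids. Sprouty genes are known for restraining fibroblast growth factor signals in the developing palate and face.

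With 1 array per condition, the spread between cultures is unknown and nothing was tested, so every difference below is one between single arrays. Signals are linear array intensities, differences are on the log2(signal + 21.7) scale, and a gene is counted as higher or lower when that difference reaches 2-fold. Probe sets with an average signal of at least 66.1 over the 4 arrays were kept, and the brightest kept probe set stood for its gene. Of the 23 member probe sets 13 were kept, for 7 of the 8 genes, and no Phlda2 probe set was among them. Array medians lay between 66.3 and 72.7. All 7 mesenchyme markers were kept, with a summed signal from 79137 to 91304. The 7 macrophage markers summed to 41955 (untreated), 39718 (TGF-beta2), 40864 (SB431542) and 35875 (oxozeaenol), and the 7 epithelial markers to 1910, 1793, 1859 and 5723 in the same order. None of these markers was at 0 on any array, and 1 of 4 endothelial and 2 of 4 skeletal muscle markers were kept. The 4 muscle markers summed to 477, 442, 396 and 216 in the same order, and the 4 endothelial markers to between 238 and 362. In RNA from a whole culture, fewer cells of a type and less RNA per cell cannot be told apart.

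The oxozeaenol array held the lowest signal of 6 of the 7 kept genes. Phlda1, Spred2 and Spred1 were far lower there than on any other array, Spry2 was lower by close to 2-fold, and Spry1 and Spry4 by less. Phlda3 went the other way and was highest there. On the TGF-beta2 array and on the SB431542 array all 7 genes were within 2-fold of the untreated array.

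**Figure D1:**
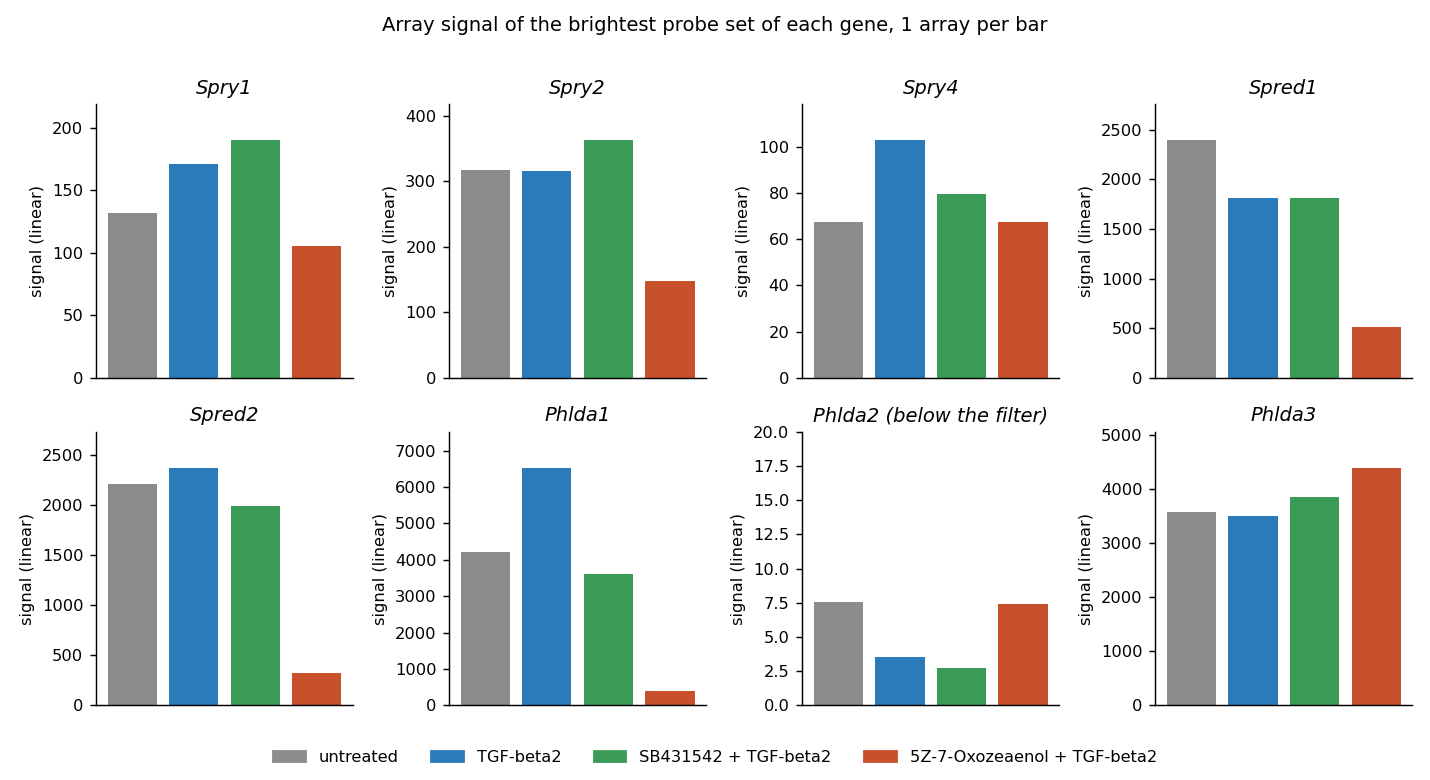
Linear array signal (vertical axes, each from 0 and on its own scale) of the brightest probe set of each gene, with 1 bar per array. The oxozeaenol bar is the shortest for Spry1, Spry2, Spred1, Spred2 and Phlda1, is almost level with the untreated bar for Spry4 (67.5 and 67.7), and is the tallest for Phlda3 (4401). Phlda2 read under 8 on every array, below the filter.

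Among the Phlda genes, Phlda1 had the widest range. Its signal was 4207 (untreated), 6534 (TGF-beta2), 3616 (SB431542) and 379 (oxozeaenol), where both inhibitor arrays also had TGF-beta2. It was thus highest with TGF-beta2 alone, near the untreated level with SB431542, and lowest with oxozeaenol. With TGF-beta2 it was 1.55-fold higher than untreated, a log2 difference of 0.63 that ranked 299 from the top of 11744 genes and did not reach 2-fold. With SB431542 it was 1.8-fold lower than with TGF-beta2 alone (log2 difference −0.85), again short of 2-fold. With oxozeaenol it was 16.4-fold lower than with TGF-beta2 alone (−4.03), the 7th lowest of 11744 genes, and 10.6-fold lower than untreated (−3.40), the 5th lowest. One probe set represents Phlda1, so no second probe set checks these values.

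Phlda3, the p53-induced inhibitor of Akt, read 3585 (untreated), 3502 (TGF-beta2), 3862 (SB431542) and 4401 (oxozeaenol). These signals span a narrow range, and the difference between the oxozeaenol and TGF-beta2 arrays was 0.33 on the log2 scale, or 1.25-fold. Phlda2 read 7.53, 3.51, 2.70 and 7.43 in the same order. All 4 values are far under the filter level of 66.1, and no fold is given for it.

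The Spred genes, whose products recruit neurofibromin to Ras, differed little on 3 arrays and were low on the fourth. Spred2 read 2206 (untreated), 2373 (TGF-beta2), 1988 (SB431542) and 327 (oxozeaenol). The first 3 values lie close together and the last stands apart from them. Spred2 was 6.88-fold lower with oxozeaenol than with TGF-beta2 alone (−2.78), the 29th lowest gene, and 6.4-fold lower than untreated (−2.68), the 17th lowest. A second kept probe set read 459, 411, 320 and 54.8, with log2 differences of −2.50 from TGF-beta2 alone and −2.65 from untreated. The other 3 Spred2 probe sets did not pass the filter. They read between 7.21 and 74.2, and with oxozeaenol over TGF-beta2 they gave differences from −0.47 to 0.88.

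Spred1 read 2397, 1810, 1816 and 515 in the same order. The untreated array was the highest, the next pair were alike, and the oxozeaenol array was the lowest. Spred1 was 3.41-fold lower with oxozeaenol than with TGF-beta2 alone (−1.77), the 73rd lowest gene, and 4.5-fold lower than untreated (−2.17), the 32nd lowest. Spred1 had 6 kept probe sets, which come from the same RNA and are not replicates. In the comparison of oxozeaenol with TGF-beta2 alone all 6 were below 0, from −2.09 to −0.55 with a median of −1.46, and 5 of the 6 reached 2-fold. Against untreated, 4 of the 6 reached 2-fold. With SB431542 over TGF-beta2 the same 6 lay between −0.19 and 0.10. Of these, 3 carry the suffix of probe sets that can match more than 1 transcript, and these had differences of −1.46, −1.47 and −2.09 with oxozeaenol over TGF-beta2 alone. The remaining 2 Spred1 probe sets were dim, at 51.9 to 77.2 and at 1.79 to 7.35.

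**Figure D2:**
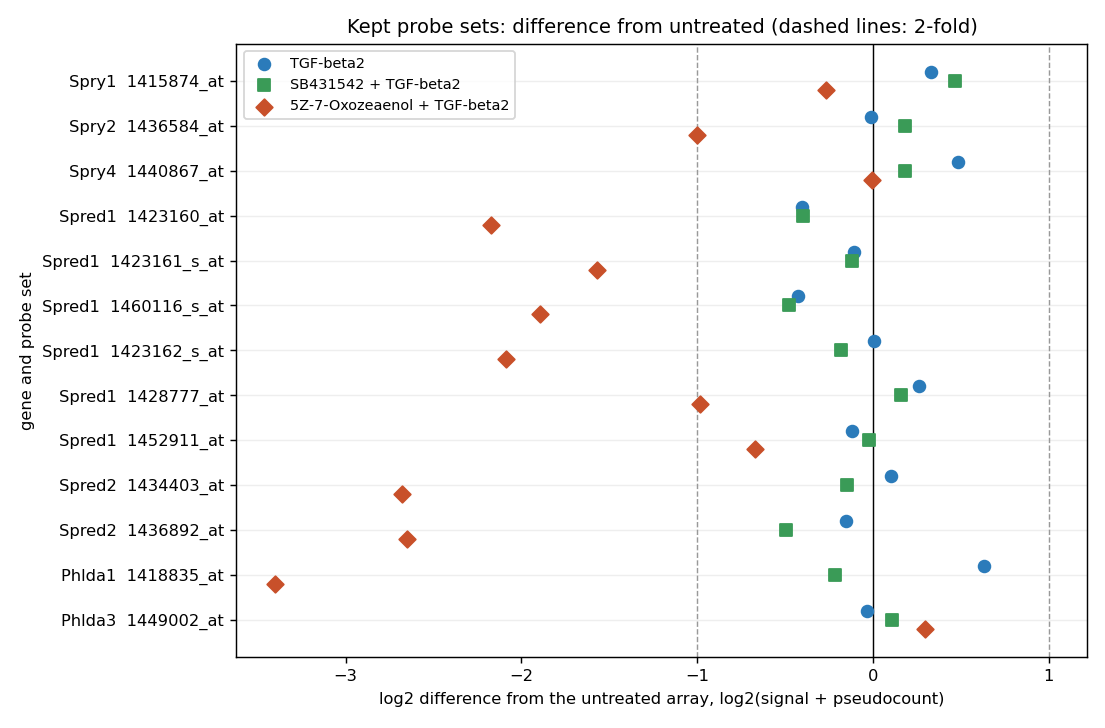
Log2 difference from the untreated array (horizontal axis) for the 13 kept probe sets (vertical axis, gene and probe set), with circles for TGF-beta2, squares for SB431542 with TGF-beta2, diamonds for oxozeaenol with TGF-beta2 and dashed lines at 2-fold. All circles and squares lie inside the dashed lines, and 8 of the 13 diamonds lie beyond the lower one. These are 4 for Spred1, 2 for Spred2, 1 for Phlda1 and 1 for Spry2, which passes it only just (−1.003). Counted by gene, 4 of 7 were lower, where 1.51% of all genes were.

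The brightest probe sets of the Sprouty genes had smaller differences with oxozeaenol than those of Phlda1 and the Spred genes. Spry2 read 317 (untreated), 315 (TGF-beta2), 363 (SB431542) and 147 (oxozeaenol). The other arrays were close together and the oxozeaenol array was the lowest, with log2 differences of −0.99 from TGF-beta2 alone, −1.003 from untreated and −1.19 from SB431542. The first of these falls just outside the 2-fold rule and the second just inside it, so a count that turns on Spry2 turns on very small differences. A smaller pseudocount, the 10th percentile, put it past 2-fold below TGF-beta2 alone (−1.07), and a larger one, the median, left it no longer 2-fold below untreated (−0.83). The second Spry2 probe set did not pass the filter and read 63.6, 33.4, 90.6 and 44.4.

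Spry1 read 132 (untreated), 171 (TGF-beta2), 190 (SB431542) and 106 (oxozeaenol). It was highest with SB431542 and lowest with oxozeaenol, with log2 differences of −0.60 between oxozeaenol and TGF-beta2 alone and −0.73 between the 2 inhibitor arrays. Both were within 2-fold.

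Spry4 gave different answers from different probe sets. Its brightest probe set by the mean over the 4 arrays read 67.7, 103, 79.6 and 67.5, in the order untreated, TGF-beta2, SB431542 and oxozeaenol. It was highest with TGF-beta2, and the oxozeaenol value was just under the untreated one, with a difference of −0.48 from TGF-beta2 alone. A second probe set read 91.6, 128, 87.1 and 1.58, with a difference of −2.69 from TGF-beta2 alone. Both were highest with TGF-beta2, and they disagreed on oxozeaenol. The second probe set missed the filter, at a mean of 59.3, because of its low oxozeaenol value, while its plain linear mean was 77.1. On the untreated, TGF-beta2 and SB431542 arrays it was brighter than the first, so the choice between them rests on the oxozeaenol array. With both probe sets kept and their median taken, Spry4 was at least 2-fold lower with oxozeaenol (−1.59 from TGF-beta2 alone). The remaining 2 Spry4 probe sets read between 3.22 and 40.5. Which probe set reports Spry4 transcripts could not be settled from these arrays.

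The upstream sequences of Spry2, Spred1 and Spred2, which were at least 2-fold lower with oxozeaenol than untreated, are shown beside that of Phlda3, which was not lower, so that the start regions of members that moved apart can be read together. They are the 250 bases before each gene's start from RefSeq on GRCm38.p6, printed in the direction of transcription: Spry2 at chr14:105896820-105897069 (minus strand), Spred1 at chr2:117120821-117121070 (plus strand), Spred2 at chr11:19924192-19924441 (plus strand) and Phlda3 at chr1:135765835-135766084 (plus strand). Capitals mark matches to the motifs named below. Sequences of Phlda1 and Spry4 were not used here, and that of Spry1, which was within 2-fold, is not printed.
Spry2: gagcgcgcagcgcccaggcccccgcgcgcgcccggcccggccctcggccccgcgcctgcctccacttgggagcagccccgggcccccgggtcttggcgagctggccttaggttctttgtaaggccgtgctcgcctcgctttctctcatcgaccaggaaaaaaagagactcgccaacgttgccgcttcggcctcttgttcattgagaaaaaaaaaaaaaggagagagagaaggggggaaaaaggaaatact
Spred1: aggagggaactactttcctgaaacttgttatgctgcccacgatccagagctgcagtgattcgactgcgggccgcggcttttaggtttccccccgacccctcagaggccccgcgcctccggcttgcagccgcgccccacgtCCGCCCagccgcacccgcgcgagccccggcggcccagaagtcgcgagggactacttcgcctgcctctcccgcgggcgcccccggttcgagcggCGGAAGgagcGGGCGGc
Spred2: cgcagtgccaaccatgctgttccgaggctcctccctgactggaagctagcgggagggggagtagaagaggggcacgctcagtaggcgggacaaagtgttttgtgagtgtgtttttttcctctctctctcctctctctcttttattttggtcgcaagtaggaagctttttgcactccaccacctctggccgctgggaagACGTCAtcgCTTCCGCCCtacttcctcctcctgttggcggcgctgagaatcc
Phlda3: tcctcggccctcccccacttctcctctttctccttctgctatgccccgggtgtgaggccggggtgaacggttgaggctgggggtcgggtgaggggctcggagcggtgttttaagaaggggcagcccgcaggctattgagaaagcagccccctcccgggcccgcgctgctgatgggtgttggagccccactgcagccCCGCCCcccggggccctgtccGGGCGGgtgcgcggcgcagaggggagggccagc

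Both strands of these windows were searched for sequences bound by factors downstream of MAP kinases, Smads and NF-kappaB. No match was found in any of the 4 for an AP-1 site (TGANTCA, in 6.75% of 32851 promoter windows of this length), a cyclic AMP response element (TGACGTCA, 1.55%), an ETS site (CCGGAAG, 6.91%), a Smad binding element (GTCTAGAC, 0.167%), the serum response factor CArG box (1.47%) or an NF-kappaB site (7.25%). Shorter motifs were then added after these sequences had been seen. Spred1 and Spred2 each held 1 match to the ETS core CGGAAG (13.6% of all windows), and Spred2 held 1 match to the cyclic AMP response element core ACGTCA (6.47%). Spred1 and Phlda3 held 2 matches each to the GC box GGGCGG (32.7%) and Spred2 held 1, which overlaps its ETS core. Spry2 held no match to any motif searched, and none of the 4 held a TATA box (TATAAA, 12.4%). Of all these motifs, the Spry1 window held 1 GC box. A match is a description of letters and not a measured binding site.

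The comparison of TGF-beta2 with untreated asks which transcripts respond to the ligand within 120 minutes. None of the 7 kept genes was at least 2-fold higher and none lower, where 0.673% of 11744 genes were higher and 0.366% lower. The median difference of the 7 was 0.10, against −0.03 over all genes. Differences ran from −0.40 for Spred1 to 0.63 for Phlda1. Phlda1, Spry4 (0.48) and Spry1 (0.33) had the largest positive values.

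The SB431542 comparison asks which levels differ when the receptor kinase inhibitor is given before TGF-beta2. None of the 7 genes was 2-fold higher and none lower than with TGF-beta2 alone, where 0.613% of all genes were higher and 1.18% lower. The median was 0.01, against 0.03 over all genes. Phlda1 had the largest difference, at −0.85, and the other 6 lay between −0.30 and 0.19. Against untreated the 7 ranged from −0.40 to 0.46, none reaching 2-fold, where 0.468% of all genes were higher and 0.383% lower.

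The oxozeaenol comparison asks which levels differ when the Tak1 inhibitor is given before TGF-beta2. Whether a difference goes through Tak1 was not tested. Phlda1, Spred2 and Spred1, 3 of the 7 genes, were at least 2-fold lower than with TGF-beta2 alone, where 2.17% of all genes were, and none was higher, where 1.82% of all genes were. The median of the 7 was −0.99, against 0.05 over all genes. Against untreated Spry2 joined them, so that 4 of 7 were lower, where 1.51% of all genes were, with a median of −1.003 and none higher (1.49% of all genes). These comparisons share the oxozeaenol array, so they are not separate evidence. On that array the summed macrophage markers were the lowest of the 4 arrays and the summed epithelial markers the highest. Against TGF-beta2 alone the macrophage markers ran from −0.73 (Cd14) to 0.00 (Lyz2) and the epithelial markers from 0.34 (Krt18) to 2.82 (Krt14). Krt14 (295 with TGF-beta2 and 2218 with oxozeaenol) and Krt5 (233 and 1383) led the epithelial sum. Epcam read 369 untreated and 366 with oxozeaenol. The summed skeletal muscle markers were lowest on the oxozeaenol array, and so was Des, which encodes the muscle filament protein desmin. Des read 273 (untreated), 269 (TGF-beta2), 289 (SB431542) and 80.2 (oxozeaenol), a log2 difference of −1.51 from TGF-beta2 alone. The other muscle markers were not lowest with oxozeaenol. Myod1 read 54.2 with TGF-beta2 and 55.9 with oxozeaenol. Myog (9.94) and Ckm (21.0), both under the filter, were lowest with SB431542, against 19.6 and 60.1 with oxozeaenol. The part of these marker differences in the values of the Spred, Phlda and Sprouty genes was not tested.

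**Figure D3:**
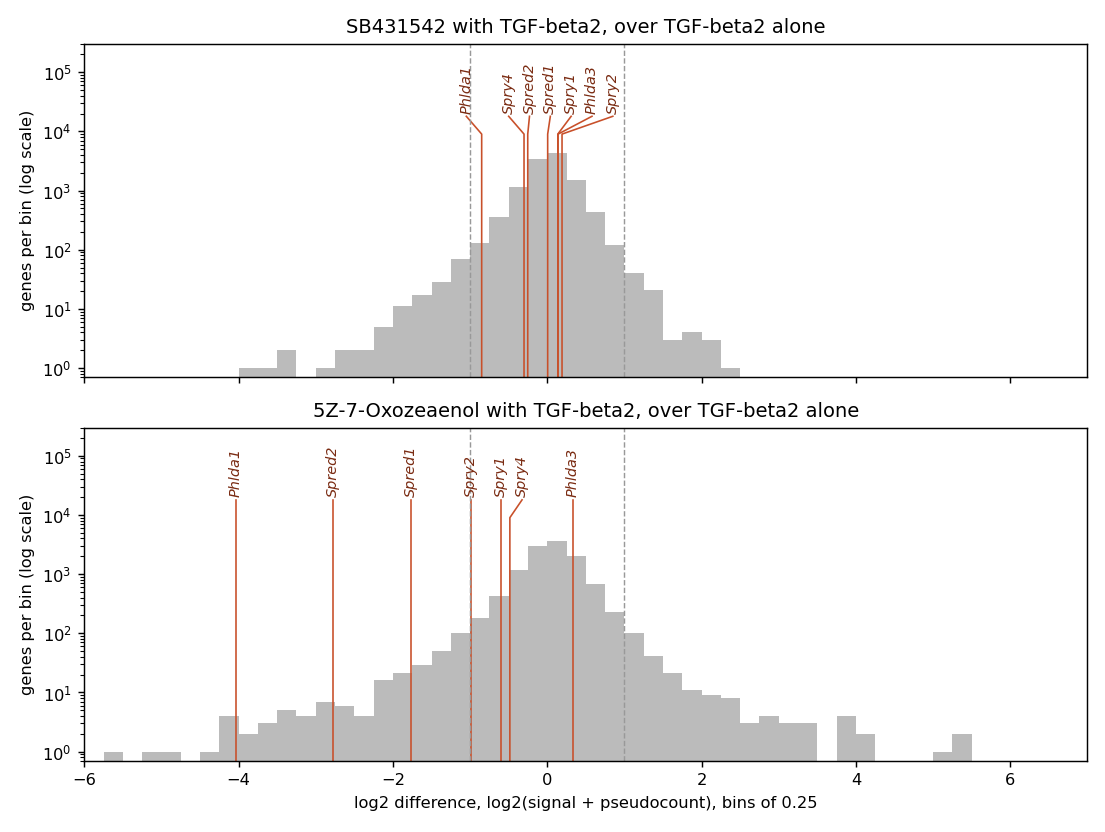
Number of genes (vertical axis, log scale) per bin of log2 difference from the TGF-beta2 array (horizontal axis) for all 11744 genes, with a line at each of the 7 kept genes and dashed lines at 2-fold. With SB431542 all 7 lines stand inside the dashed lines, and with oxozeaenol Phlda1 (−4.03), Spred2 (−2.78) and Spred1 (−1.77) stand in the thin lower tail.

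The inhibitor arrays were also set directly against each other. With oxozeaenol, Phlda1 was 9.09-fold lower than with SB431542 (−3.18, the 4th lowest gene), Spred2 5.77-fold (−2.53, the 13th lowest), Spred1 3.42-fold (−1.78, the 47th lowest) and Spry2 2.27-fold (−1.19, the 110th lowest). Thus 4 of 7 genes were lower, where 1.3% of all genes were, and none was higher, where 1.51% of all genes were. The doses of the inhibitors are not given, and the difference between them has no replicate check.

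Other feedback genes of the ERK route, listed together with the ETS factor genes Etv4 and Etv5, were compared in the same way. Of a list of 14, 13 were kept, and 6 were at least 2-fold lower with oxozeaenol than with TGF-beta2 alone, where 2.17% of all genes were. None was higher, where 1.82% of all genes were, and 7 were within 2-fold (median −0.50, against 0.05 over all genes). The 6 were Dusp6 (−5.24), a phosphatase of ERK, Dusp4 (−4.18) and Dusp5 (−2.81), nuclear MAP kinase phosphatases, Errfi1 (−3.27), an inhibitor of the EGF receptor, and the ETS factors Etv4 (−1.42) and Etv5 (−1.25). For Etv5, 1 of 3 kept probe sets reached 2-fold. Spred3, the third Spred gene, read 103 (untreated), 62.9 (TGF-beta2), 93.2 (SB431542) and 46.2 (oxozeaenol). It was within 2-fold of TGF-beta2 alone, at −0.32. Il17rd, which encodes the membrane inhibitor Sef, was at 0.32, and the ubiquitin ligase genes Cbl and Cblb were at −0.50 and −0.47. Spry3 was under the filter.

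The other arrays gave further values for these genes. With TGF-beta2 over untreated Dusp5 (1.58) and Dusp4 (1.003) were at least 2-fold higher, 2 of 13, where 0.673% of all genes were. Dusp4, with 1 probe set, passed the 2-fold line only just, and this count was not tried under other settings. With SB431542 over TGF-beta2 Dusp4 (−1.86), Dusp5 (−1.42) and Errfi1 (−1.17) were lower, 3 of 13, where 1.18% of all genes were. In the same SB431542 comparison Spred2 was at −0.25 and Spred1 at 0.01. Phlda1 lay between, at −0.85.

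**Figure D4:**
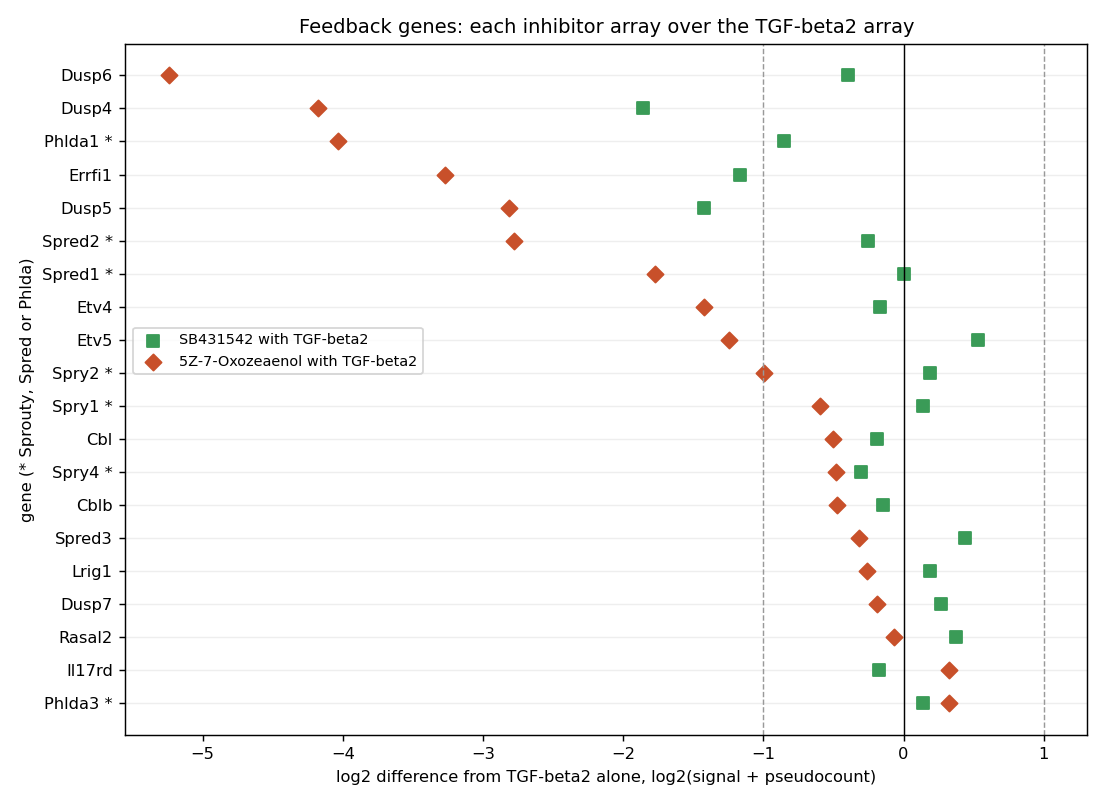
Log2 difference from the TGF-beta2 array (horizontal axis) for the 7 kept genes (marked with an asterisk) and the 13 kept genes of the ERK feedback list (vertical axis), ordered by the oxozeaenol value, with squares for SB431542 and diamonds for oxozeaenol and dashed lines at 2-fold. Dusp6 (−5.24) and Dusp4 (−4.18) are the lowest, followed by Phlda1 (−4.03), and Phlda3 (0.33) is at the other end.

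Transcripts of the route that Sprouty and Spred proteins act on were also compared. Of 23 genes of the Ras-ERK cascade 17 were measured, and all 17 were within 2-fold with oxozeaenol over TGF-beta2 alone. Their median was 0.00, against 0.05 over all genes. Most genes were within 2-fold in this comparison, where 1.82% of all genes were higher and 2.17% lower. The largest differences were those of Gab1, a docking adaptor (0.79), and Rasa1, a Ras GTPase-activating protein (−0.43). Nf1, which encodes the neurofibromin that Spred proteins recruit, was at 0.19. Of 11 receptor genes 10 were kept, and Fgfr2, a fibroblast growth factor receptor, was at least 2-fold higher (2.01, from 412 to 1721) with 9 within 2-fold. Over all genes 1.82% were higher in that comparison. Pdgfra, a PDGF receptor, read 3643 (untreated), 1704 (TGF-beta2), 3835 (SB431542) and 3386 (oxozeaenol), so it was lowest with TGF-beta2 alone (−1.09 from untreated).

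The lists chosen for the Phlda genes gave these values with oxozeaenol over TGF-beta2 alone, where 1.82% of all genes were higher and 2.17% lower. Of 9 genes of the Akt arm 7 were measured, and all 7 were within 2-fold, led by Foxo3 (0.78) and Foxo1 (−0.68), transcription factors that Akt restrains. Of 14 p53 genes 11 were measured, 3 were higher, 1 was lower and 7 were within 2-fold. The higher ones were Trp53inp1 (1.92), Fas (1.38) and Sesn1 (1.31), and the lower one was Btg2 (−1.19), beside 0.33 for Phlda3. For Btg2, 1 of 2 kept probe sets was at least 2-fold lower. Of 8 genes near Phlda2 in its imprinted region 6 were kept, and Cdkn1c, a growth-restraining cell cycle inhibitor, was higher (1.26, from 167 to 431), while the other 5 were within 2-fold.

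For each kept gene the nearest patterns were found as the smallest Euclidean distance over the log2 differences from untreated on the 3 stimulated arrays. Nearest to Spred2 were the AP-1 subunit genes Fosl1 (distance 0.09) and Fos (0.30), followed by Sema7a (0.41), a membrane semaphorin gene. Fosl1 read 1519, 1722, 1372 and 212 in the order untreated, TGF-beta2, SB431542 and oxozeaenol. Nearest to Phlda1 were Ereg (0.36), an EGF receptor ligand gene, Rgs1 (0.39), a regulator of G-protein signalling, and Trib1 (0.75), a pseudokinase gene. Nearest to Spred1 were the chemokine gene Ccl12 (0.16), the chemokine receptor gene Ccr1 (0.35) and G530011O06Rik (0.40). Ccl12 read 2845, 2278, 2292 and 665, and Ccr1 read 1823, 1639, 1407 and 324. Nearest to Spry2 were Rab11fip4 (0.09), Fhdc1 (0.13) and Icosl (0.14), and nearest to Spry1 were Ints6 (0.05), Slc25a25 (0.06) and 2310034G01Rik (0.10). Nearest to Spry4 were Fxr2 (0.04), Fam71e1 (0.07) and Sf3b3 (0.08), and nearest to Phlda3 were Hyi (0.01), Tbc1d8b (0.01) and Dmac2 (0.02). A distance over 3 differences from a shared untreated array describes these arrays only.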

How the data were processed

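RNA of 4 cultures was measured on Affymetrix 3′ expression arrays, 1 per culture, from 500 ng of total RNA per the labels' protocols. The deposited values are linear intensities for 45101 probe sets. Per the submitters' processing notes the tool was GCOS (Affymetrix), with no version or summary method recorded there. The mean without the lowest and highest 2% was 500.003 on every array, so the arrays had been scaled before deposit, which assumes equal average abundance. Leaving out 64 control probe sets, 34945 had 1 symbol, 932 several and 9160 none. Values were converted to log2(signal + 21.7), the pseudocount being the 25th percentile, which understates differences of dim genes. Probe sets were kept when the mean over the arrays on that scale reached the median over all probe sets, a signal of 66.1, and 11744 genes remained. With 1 array per group there was no test, and the number of arrays limits the precision. Tested on simulated data for oxozeaenol over TGF-beta2 with 11753 genes, the counting step recovered 100 of 100 genes raised 4-fold and 96 of 96 lowered 4-fold. Changed genes that missed the filter were left out of these counts. The simulated noise was small beside the 4-fold change, so this checks the counting and not the spread between cultures. Python 3.11.15, numpy 2.4.6 and pandas 2.3.3 were used. Comparisons of 6 pairs of arrays were made.

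The members and lists were chosen with earlier results of these data known. Named genes were all members, list genes at least 2-fold apart in the comparison described (or the 2 largest differences of a list with none), the cell type markers, and the 3 nearest patterns per kept gene. Spred3, Spry3, Il17rd, Cbl, Cblb and Nf1 were named outside this rule, for their role. Alternatives were 2 other pseudocounts, no filter and a stricter one, quantile normalization, median centring and the median of kept probe sets. A filter on the linear mean was added after seeing the data.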

Additional observations from a re-analysis of the deposited data

How the results depend on the processing

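In the 3 comparisons with the oxozeaenol array, Phlda1, Spred2, Spred1 and Spry2 were lower under every alternative tried. Over the 9 alternatives, the log2 difference of Phlda1 with oxozeaenol over TGF-beta2 alone lay between −4.09 and −3.88, that of Spred2 between −2.84 and −2.62, and that of Spred1 between −1.82 and −1.45, all past 2-fold. Spry2 moved across the 2-fold line. It was past it below TGF-beta2 alone with the 10th percentile as pseudocount (−1.07), quantile normalization (−1.08) and median centring (−1.05), and short of it with the median as pseudocount, both below untreated (−0.83) and below SB431542 (−0.99). Spry4 reached 2-fold under 1 alternative, chosen after seeing the data, a filter on the linear mean with the median over kept probe sets. Its differences were then −1.59 from TGF-beta2 alone, −1.20 from SB431542 and −1.14 from untreated. With that filter alone, where the probe set with the higher mean stood for the gene, they were −0.48, −0.18 and −0.003. The stricter filter left out Spry4. Small differences within 2-fold changed sign under some settings, such as Spry2 with TGF-beta2 over untreated (−0.01, and 0.01 under quantile normalization), Spred2 in the same comparison (0.10, and −0.02 with the median of kept probe sets) and Spred1 with SB431542 over TGF-beta2 (0.01, and −0.12 with the median of kept probe sets). Counts of lower and higher genes among the members stayed within 1.5 times of those reported. The background over all genes moved more: with oxozeaenol over TGF-beta2 alone, 214 genes were higher and 255 lower in the values reported, 588 and 511 with no filter, 135 and 196 with the median as pseudocount, and the stricter filter gave 141 and 213. With TGF-beta2 over untreated the 79 higher and 43 lower genes became 350 and 278 with no filter and 50 and 21 with the larger pseudocount. With SB431542 over untreated 55 genes were higher and 45 lower, against 39 and 68 under median centring and 46 and 55 under quantile normalization, and with oxozeaenol over untreated 175 and 177 became 137 and 223 under median centring. Median centring moved the median of all genes for SB431542 over untreated to −0.11. No leave-one-out was possible with 1 array per group. No paired analysis was possible because each group has 1 array.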
